A study of Mus musculus with 15 samples.

Results

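Lrp2, Cubn, Amn, Dab2, Clcn5 and Lrpap1 form the receptor complex and core machinery with which the proximal tubule takes filtered albumin back from the urine. These 6 genes were taken by name from a table of 46078 genes counted in podocyte fractions of male C57BL/6J mice. Cortex was digested, cells were labelled with nephrin antibodies and held on a magnetic column, so the fraction is enriched for podocytes and not pure. The young group was 4 months old and received no injection. Both aged groups were 21 months old and were injected weekly into the peritoneum for 8 weeks at 12 mg/kg, with the isotype control antibody IgG2a (clone 2A3) or with the anti-PD-1 antibody aPD1ab (clone RMP1-14), which blocks the checkpoint receptor PD-1. The titles of the aged aPD1ab samples give 47 days of treatment. The labels hold 15 samples, and 13 libraries could be tied to a group: 5 young, 4 aged IgG2a and 4 aged aPD1ab.

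Megalin, the product of Lrp2, is a giant receptor of the LDL receptor family on the brush border. Cubilin, the product of Cubn, has no transmembrane segment and reaches and holds the membrane through amnionless, the product of Amn. Together they bind albumin, vitamin carriers and many small proteins, and their loss lets these proteins pass into the urine. Dab2 is the adaptor that couples megalin to clathrin, Clcn5 is the chloride and proton exchanger of early endosomes that is mutated in Dent disease, and Lrpap1 is the chaperone that keeps ligands off megalin during its folding in the endoplasmic reticulum. In the kidney, megalin and cubilin are best known from the proximal tubule rather than the podocyte. The study's discussion also cites work in rats where both receptors rose with age in podocytes and parietal epithelial cells. The bulk libraries used here do not assign a transcript to a cell type.

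Total counts per library ran from 19912969 to 32717100, so 3 counts were worth 0.0917 to 0.151 CPM (counts scaled to a common library size, by TMM below). Totals and such floors cover counting error only. Aged IgG2a library 1 stood apart from the other 3 libraries of its group. The tests of the 6 genes and the counts of each gene list that use the group are given with and without it. Its levels of Lrp2, Cubn, Clcn5 and Lrpap1 were themselves extreme in the group. Leaving it out narrows their spread, so p-values without it are not independent of the values tested. Mitochondrial genes took 29.3% of counts in that library and 38.7%, 46.2% and 54.9% in the other aged IgG2a libraries, against 23.1% to 30.4% in young and 20.4% to 38.5% in aged aPD1ab libraries. Podocyte markers were present in every library, at a summed level of 875 to 1412 CPM in young, 525 to 718 CPM in aged IgG2a and 266 to 860 CPM in aged aPD1ab libraries. Markers of the proximal tubule were far more abundant than that. The 20 genes fixed as markers of this segment summed to 14861 to 22592 CPM in young libraries, to 11608 CPM in aged IgG2a library 1 and 2258 to 3515 CPM in the other aged IgG2a libraries, and to 11364 to 32174 CPM in aged aPD1ab libraries, with none of the 20 at 0 in any library. In bulk libraries, fewer cells of a type and less RNA per cell cannot be told apart.

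All 6 genes were well covered. The least abundant, Amn, had between 100 and 2403 counts per library, and Lrp2 had between 1639 and 33478. Per length (TPM, counts per base scaled to a common total over all genes with a length), the young order was Lrp2, with a median of 149 TPM, then Lrpap1 with 116, Dab2 with 106, Amn with 41.7, Cubn with 30.1 and Clcn5 with 20.7. Lrp2 lay above Lrpap1 in 4 of 5 young libraries, and Lrpap1 lay above Dab2 in 4 of 5, so these neighbours did not differ beyond their spread. The step from Dab2 down to Amn was present in 5 of 5. Without library 1, the aged IgG2a order was Dab2 with a median of 57.8 TPM, Lrpap1 with 29.7, Lrp2 with 8.69, Clcn5 with 5.37, Amn with 4.32 and Cubn with 2.71. The megalin transcript had moved from the top of the list to below its adaptor and its chaperone in each of these 3 libraries. In aged aPD1ab libraries the medians of Lrpap1, Dab2, Lrp2 and Amn were 103, 102, 81.2 and 69.8 TPM, each order between neighbours held in 3 of 4 libraries, and Cubn and Clcn5 followed at 23.6 and 12.6 TPM. Mitochondrial counts enter the TPM total, and their share differed between libraries as given above.

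**Figure D1:**
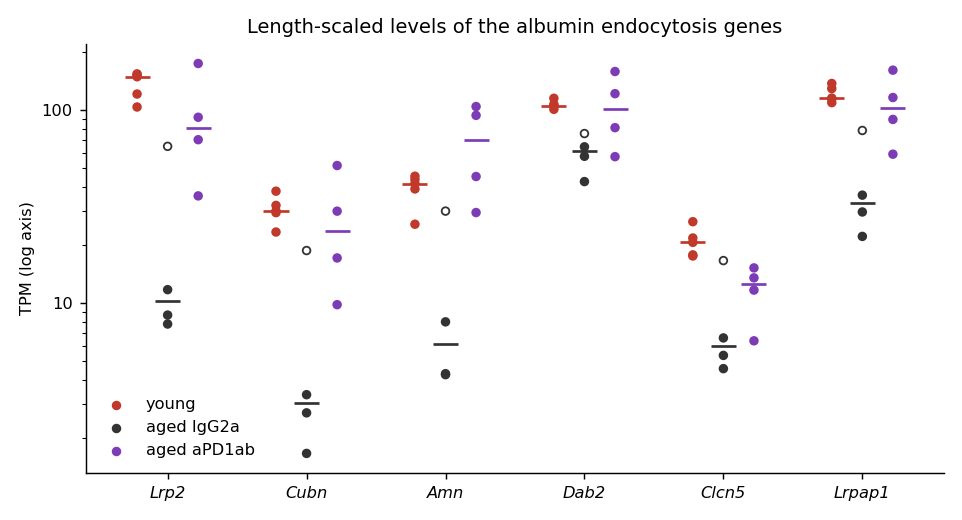
Length-scaled level (TPM, log axis) of each of the 6 genes in 5 young, 4 aged IgG2a and 4 aged aPD1ab libraries, with 1 point per library, short lines at group medians and an open point for aged IgG2a library 1. Lrp2 leads in young libraries at a median of 149 TPM, while in the 3 filled aged IgG2a points it lies at 7.81 to 11.8 TPM, under Dab2 at 42.7 to 64.7.

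The first question was what differs with age, between aged IgG2a and young mice. Young mice were not injected, so age and the injections of IgG2a cannot be told apart in this comparison. Transcripts of both albumin receptors were several times lower in aged libraries, the chaperone and the endosomal exchanger were lower to a smaller degree, and the adaptor was at a similar level. In the quasi-likelihood test of edgeR, with p adjusted over all 15953 genes tested (Benjamini-Hochberg), Lrp2, Cubn, Clcn5 and Lrpap1 fell at an adjusted p under 0.05, and 0 of the 6 rose. The background of this comparison was 8.38% of genes called lower and 9.05% called higher. Without aged IgG2a library 1, Amn fell as well, which makes 5 of 6, beside 23.5% of 16216 genes called lower and 22.1% called higher.

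Lrp2 (ENSMUSG00000027070, chr2:69424340-69586065 on the minus strand, GRCm38) was at 717, 919, 1117, 925 and 843 CPM in the 5 young libraries. In the aged IgG2a libraries it was at 496, 82.0, 139.5 and 110.2 CPM. The groups did not overlap, and aged library 1 lay between the young range and its own group. The log2 fold change was -2.09 (SE 0.48, 95% interval -3.17 to -1.01, edgeR adjusted p = 0.0234), a 4.26-fold lower level, and 0.752% of tested genes had a lower value. This call was lost without young library 3 or 4 or aged IgG2a library 2, 3 or 4 (smallest change -1.83, without aged library 2). Without library 1 the log2 fold change was -2.96 (SE 0.21, edgeR adjusted p = 5.88e-06), a 7.77-fold lower level.

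Cubn (ENSMUSG00000026726, chr2:13276338-13491813, minus strand) was at 144, 173, 255, 158 and 187 CPM in young libraries. In aged IgG2a libraries it was at 128, 22.8, 35.6 and 21.0 CPM. Again no aged library reached the young range, and library 1 came closest. The fitted change was -1.78 on the log2 scale (SE 0.50, 95% interval -2.90 to -0.67, edgeR adjusted p = 0.0382), and without library 1 it was -2.72 (SE 0.24, edgeR adjusted p = 3.13e-05). Leaving out any 1 of the other 8 libraries lost the call, the smallest change being -1.54. Cubn shares 368 exonic bases with Gm13270 on the opposite strand, a gene with 86 counts over the 13 libraries against 50388 for Cubn.

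Amn (ENSMUSG00000021278, chr12:111271095-111276426, plus strand) was at 31.7, 29.1, 32.3, 17.0 and 34.9 CPM in young libraries. Its aged IgG2a values were 25.3, 4.45, 10.5 and 6.72 CPM. The groups overlapped through library 1 and the lowest young library. The log2 fold change of -1.24 (SE 0.43, 95% interval -2.20 to -0.28) missed the threshold (edgeR adjusted p = 0.0711) and passed it without library 1, at -1.94 (SE 0.32, edgeR adjusted p = 0.00116). With all libraries it passed in DESeq2 (-1.27, adjusted p = 0.0178), in limma voom with quality weights (-1.95, adjusted p = 0.000508) and with library totals in place of TMM (-1.55, edgeR adjusted p = 0.0416).

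Lrp2 and Cubn moved together most closely of the 15 pairs among the 6 genes, with a Pearson r of 0.98 in log2 CPM over the 13 libraries and 0.97 after the group means were taken out. The TPM of Lrp2 was 3.07 to 5.24 times that of Cubn in all 13 libraries, while the CPM of Lrp2 ran from 82.0 to 1363. These points share libraries, and r is a description. Their starts are built differently. The stretch before each start is shown to set a CpG-rich promoter beside an AT-rich one in 2 genes whose levels ran in parallel. Both are RefSeq sequences of GRCm38.p6, read 5′ to 3′ on the minus strand, and capitals mark the CpG dinucleotides.
Lrp2, chr2:69586066-69586279: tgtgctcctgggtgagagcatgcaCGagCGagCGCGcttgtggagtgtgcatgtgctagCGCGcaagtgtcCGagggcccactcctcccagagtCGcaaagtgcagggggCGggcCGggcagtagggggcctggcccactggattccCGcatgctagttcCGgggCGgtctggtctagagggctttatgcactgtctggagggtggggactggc
Cubn, chr2:13491877-13492126: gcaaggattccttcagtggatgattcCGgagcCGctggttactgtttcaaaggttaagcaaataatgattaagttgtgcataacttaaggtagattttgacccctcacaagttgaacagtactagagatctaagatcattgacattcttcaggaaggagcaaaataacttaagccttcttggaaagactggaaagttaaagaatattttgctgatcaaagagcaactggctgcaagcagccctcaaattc
The Lrp2 stretch ends 36 bases before the RefSeq start, where the GENCODE M21 gene begins. The Cubn stretch ends at the RefSeq start, and the GENCODE M21 gene begins 63 bases after that start. G and C made up 65.9% of the Lrp2 stretch, with 13 CpG dinucleotides, and 39.6% of the Cubn stretch, with 2 CpG. The median over 32851 windows of 250 bases before RefSeq starts was 52.4% with 6 CpG. Searched on both strands were CAAAGTCCA, an HNF4 core found in 0.384% of windows, AGGTCA followed after any 1 base by a second AGGTCA, a direct repeat found in 0.0335%, and TATAAA, found in 12.4%. Of the 8 windows for the 6 genes, 7 held none of these letters, and the match was TATAAA in the window of 1 of the Clcn5 starts. The motifs were chosen after the windows were seen, and a match is no sign of binding.

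Dab2 (ENSMUSG00000022150, chr15:6299788-6440712, plus strand) was at 319, 284, 333, 278 and 352 CPM in young libraries. In aged IgG2a libraries it was at 254, 268, 301 and 265 CPM. The ranges overlapped, and library 1 did not stand above the others here. Its log2 fold change was -0.13 (SE 0.13, 95% interval -0.42 to 0.16, edgeR adjusted p = 0.511), and without library 1 it was -0.096 (edgeR adjusted p = 0.500). With library totals in place of TMM, which moved the median of all genes from 0.038 to -0.38, Dab2 was at -0.56 (edgeR adjusted p = 0.0384). Resident macrophages also express Dab2. The 9 macrophage markers summed to 1847 to 3451 CPM in young libraries, to 3014 CPM in aged library 1 and 6961 to 8914 CPM in the other aged IgG2a libraries, and 9 of 9 rose with age. With their mean as a covariate, Dab2 was at -0.32 (edgeR adjusted p = 0.340). The macrophage mean itself differed between the groups, so a change of Dab2 and a change in macrophage RNA cannot be told apart there. The ratio of the TPM of Dab2 to that of Lrp2 was 0.678 to 1.01 in young libraries, 1.16 in aged library 1 and 4.91 to 7.45 in the other aged IgG2a libraries.

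Clcn5 (ENSMUSG00000004317, chrX:7153810-7319358, minus strand) was at 84.2, 85.3, 112, 109 and 83.7 CPM in young libraries. In aged IgG2a libraries it was at 87.0, 42.8, 43.7 and 44.4 CPM. Library 1 lay inside the young range, and the other 3 were close to each other and below it. On the log2 scale the change was -0.74 (SE 0.21, 95% interval -1.21 to -0.26, edgeR adjusted p = 0.0412), and without library 1 it was -1.04 (SE 0.12, edgeR adjusted p = 8.63e-05). As for Cubn, leaving out any 1 of the other 8 libraries lost the call, the smallest change being -0.65.

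Lrpap1 (ENSMUSG00000029103, chr5:35091501-35105766, minus strand) was at 186, 204, 239, 171 and 196 CPM in young libraries. Its aged IgG2a values were 148, 84.5, 86.9 and 77.3 CPM. No aged library reached the young range. Its log2 fold change was -0.95 (SE 0.19, 95% interval -1.36 to -0.53, edgeR adjusted p = 0.0154), and without library 1 it was -1.19 (SE 0.12, edgeR adjusted p = 3.19e-05). Of the 4 calls with age, this was lost least often when single libraries were left out, in 2 of 9 cases (without aged IgG2a library 2 or 3), against 5 for Lrp2 and 8 each for Cubn and Clcn5. Calls over all genes fell too in each fit that left out a library other than library 1. They fell to 293 to 760 lower and 260 to 744 higher, from 1337 and 1443 of 15953. Lost calls are thus not particular to these genes.

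**Figure D2:**
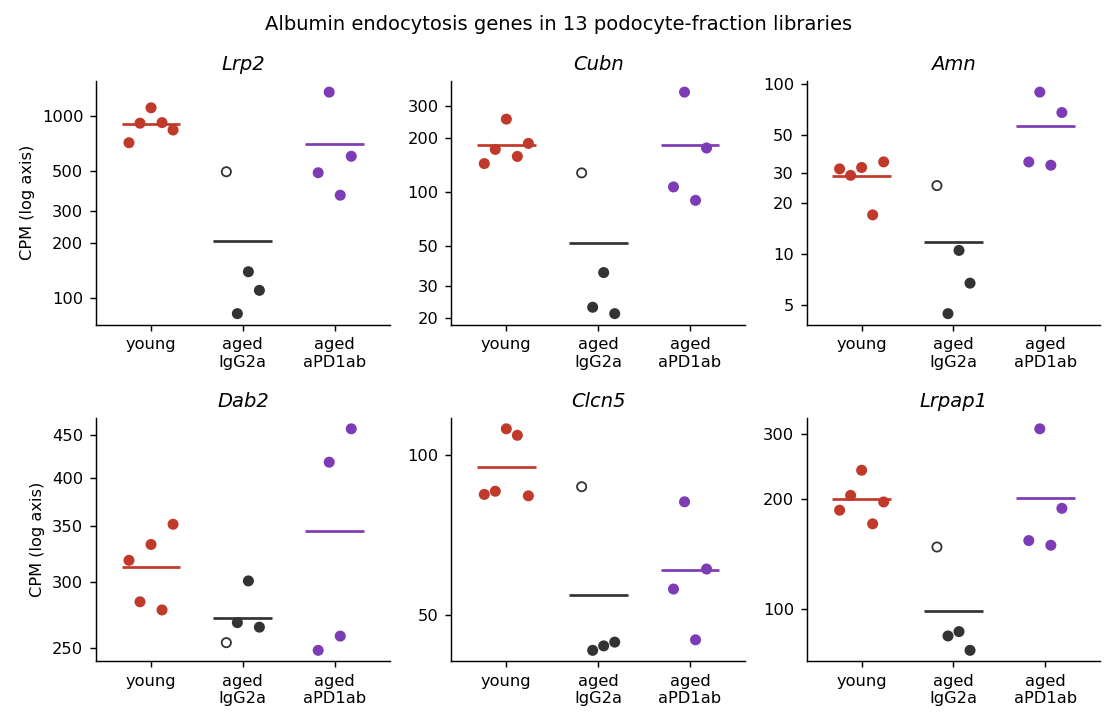
TMM-scaled CPM (log axis, its own range in each panel) of the 6 genes by group, with 1 point per library, lines at group means and an open point for aged IgG2a library 1. Filled aged IgG2a points lie at 82.0 to 139.5 CPM for Lrp2 against 717 to 1117 in young libraries, while for Dab2 the points of the 3 groups overlap.

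The antibody comparison, aged aPD1ab against aged IgG2a, asked what PD-1 blockade changes in aged mice. It shares the 4 aged IgG2a libraries with the comparison by age, so the 2 sets of values are not independent. Over all 8 libraries, 0 of the 6 genes passed in edgeR's quasi-likelihood test, as did 0 of 15530 genes (0% called higher and 0% called lower), although 4 of the 6 and 4341 of all genes had an unadjusted p under 0.05. DESeq2 and limma voom with quality weights on the same 8 libraries each called Lrp2, Cubn, Amn and Lrpap1 higher. An edgeR fit of all 3 groups, which also uses the young libraries (13 in all), called the same genes. Over all genes, DESeq2 called 1293 of 15011 higher and 839 lower. The voom fit called 3240 of 15530 higher and 2920 lower, and the fit of all 3 groups 1861 of 16330 higher and 1002 lower. Without aged IgG2a library 1 the same 4 rose in the edgeR test, beside a background of 17.1% of 15770 genes called higher and 13.2% called lower.

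Lrp2 was at 490.1, 1363, 368 and 604 CPM in the aged aPD1ab libraries. All 4 lay above aged IgG2a libraries 2 to 4, and 2 of them lay under the 496 CPM of library 1. The log2 fold change was 1.80 (SE 0.64, 95% interval 0.36 to 3.24, edgeR adjusted p = 0.128) with all libraries and 2.65 (SE 0.50, edgeR adjusted p = 0.00973) without library 1.

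Cubn was at 107, 361, 90.0 and 176 CPM with aPD1ab. Its lowest values lay under the 128 CPM of aged IgG2a library 1 and above the other 3. The log2 fold change was 1.85 (95% interval 0.33 to 3.37, edgeR adjusted p = 0.131), and without library 1 it was 2.77 (edgeR adjusted p = 0.0105).

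Amn was at 34.9, 89.9, 33.3 and 68.2 CPM with aPD1ab, and these values did not overlap the aged IgG2a group even with library 1. Its log2 fold change was 2.28 (SE 0.55, 95% interval 1.02 to 3.53, edgeR adjusted p = 0.109), 4.85-fold, and 99.4% of tested genes had a lower value. Without library 1 it was 2.95 (SE 0.47, edgeR adjusted p = 0.00774).

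Lrpap1 was at 154, 310.1, 149 and 188 CPM with aPD1ab, just above the 148 CPM of aged IgG2a library 1 and clear of the other 3. Its log2 fold change was 1.02 (95% interval 0.34 to 1.69, edgeR adjusted p = 0.109), and 1.24 without library 1 (edgeR adjusted p = 0.0156).

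Dab2 was at 248.7, 418, 259 and 458 CPM, of which 2 lay above the aged IgG2a range, 1 inside it and 1 just under it. Its log2 fold change was 0.33 (95% interval -0.23 to 0.88, edgeR adjusted p = 0.393) and 0.28 without library 1 (95% interval -0.30 to 0.85, edgeR adjusted p = 0.432). Clcn5 was at 55.9, 81.5, 44.8 and 60.9 CPM, with a log2 fold change of 0.16 (95% interval -0.45 to 0.76, edgeR adjusted p = 0.729) and of 0.44 without library 1 (95% interval -0.020 to 0.90, edgeR adjusted p = 0.128). Neither passed in any of the alternatives tried, and the intervals still allow changes of some size.

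Aged aPD1ab libraries were also set against young ones, a comparison of treated aged with untreated young mice. Of the 6 genes, Amn rose and Clcn5 fell, in opposite directions, and the other 4 did not pass. The background was 12.4% of 15986 genes called higher and 9.97% called lower. The difference was 0.98 for Amn (SE 0.31, 95% interval 0.30 to 1.66, edgeR adjusted p = 0.0449), 1.97-fold. Of the 4 treated libraries, 2 were at the top of the young range and 2 were well above it. This call was lost in 7 of 9 fits that left out a library (all but those without aged aPD1ab library 1 or 3), at a log2 fold change of 0.67 without aged aPD1ab library 2, and in the fit of all 3 groups (edgeR adjusted p = 0.140). Clcn5 differed by -0.63 (SE 0.17, 95% interval -1.01 to -0.24, edgeR adjusted p = 0.0279), and no treated library reached the young range. The Clcn5 call was lost in 5 of the 9 fits (without young library 3 or 4 or aged aPD1ab library 1, 3 or 4) and in the fit of all 3 groups (edgeR adjusted p = 0.0666).

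Lrp2 was at -0.34 against young (95% interval -1.09 to 0.41, edgeR adjusted p = 0.494), Cubn at 0.013 (-0.80 to 0.83), Dab2 at 0.16 (-0.28 to 0.59) and Lrpap1 at 0.022 (-0.45 to 0.50). Aged aPD1ab library 2 held the highest level of Lrp2, Cubn, Amn, Clcn5 and Lrpap1 in its group and the highest sum of proximal tubule markers of all 13 libraries. Without it, Lrp2 was at -0.88 against young and passed the test (edgeR adjusted p = 0.0129).

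**Figure D3:**
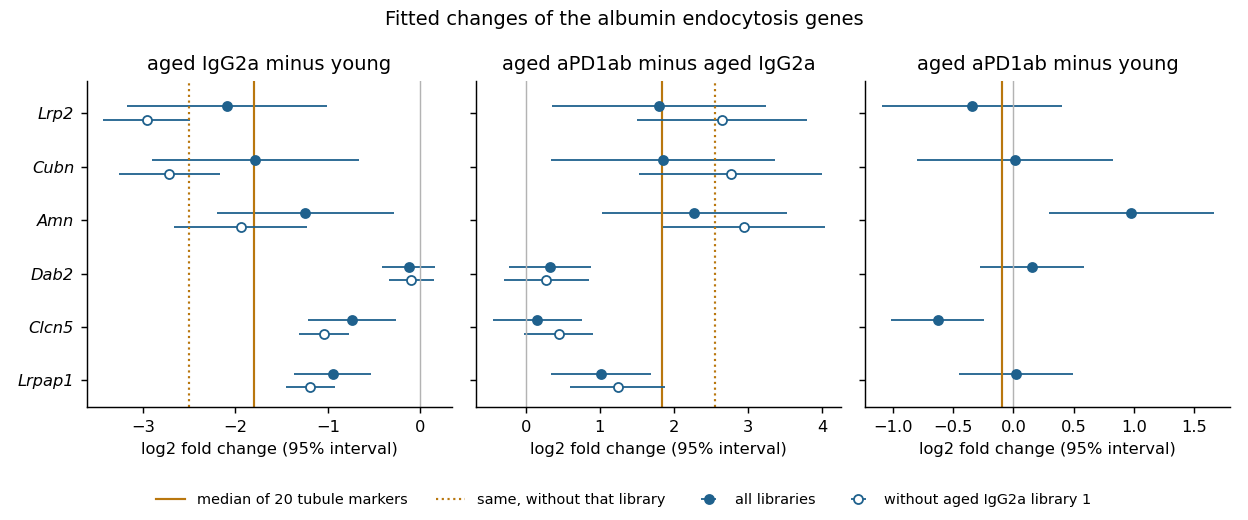
Fitted log2 fold changes with 95% intervals for the 6 genes in the 3 comparisons, with filled points for all libraries and open points without aged IgG2a library 1. Vertical lines mark 0 and the median of 20 proximal tubule markers, solid for all libraries and dotted without that library. Lrp2 and Cubn lie near the marker medians of -1.80 with age and 1.83 with the antibody, and the intervals of Dab2 include 0 in each.

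The receptors were then set beside the 20 transcripts fixed as markers of the proximal tubule. With age, 18 of the 20 proximal tubule markers fell, and 20 of 20 without library 1, with a median log2 fold change of -1.80 and a range of -2.20 for Keg1 to -0.70 for Gatm, beside a median of 0.038 over all genes. A lower value than that of Lrp2 was found in 2 of the markers, and a lower value than that of Cubn in 10. Lower values than those of Amn, Clcn5 and Lrpap1 were found in 19 of 20 markers each, and than that of Dab2 in 20 of 20. In the antibody comparison the marker median was 1.83, with 20 of 20 above 0, 0 called and 17 at an unadjusted p under 0.05, and 2.56 with 20 of 20 called higher without library 1. Against young, aged aPD1ab libraries had a marker median of -0.090, with 0 of 20 called and 1 at an unadjusted p under 0.05, and the change of Amn lay above all 20. Markers of the thick ascending limb and the distal convoluted tubule, the segments downstream, had medians of -0.17 and -0.16 with age, with 0 of 4 called in each list and 0 of 4 at an unadjusted p under 0.05, and 2 of 4 lower in each without library 1. The difference between segments was not tested. A fall with age was not confined to the proximal tubule list. Podocyte markers had a median of -1.70, with 6 of 8 lower and 1 higher. Mesangial and smooth muscle markers were at -1.18 with 3 of 6 lower, and endothelial markers at -0.50 with 5 of 7 lower. Macrophage markers rose, as given above, and so did 1 of 5 T cell, 2 of 6 B and plasma cell and 1 of 4 principal cell markers.

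On the scale of log2 CPM minus the mean log2 CPM of the 20 markers, Lrp2 lay at 0.58 to 1.18 in young, 0.33 to 0.61 in aged IgG2a and 0.22 to 0.67 in aged aPD1ab libraries. Cubn lay at -1.73 to -1.28, at -1.97 to -1.35 and at -1.81 to -1.26. For Cubn the 3 groups overlapped on this scale with or without library 1, while for Lrp2 aged IgG2a libraries reached the young range through library 1 alone and were otherwise below it. Amn lay at -4.58 to -3.91 in young libraries, at -3.85 to -3.33 in aged IgG2a libraries and at -3.26 to -2.76 in aged aPD1ab libraries, a set of ranges that do not overlap. Dab2 lay at -0.90 to -0.55 in young libraries, at -0.36 in aged IgG2a library 1, at 1.51 to 2.04 in the other 3 and at -1.05 to -0.0080 in aged aPD1ab libraries, 3 of which lay above the young range. Clcn5 lay at -2.65 to -1.91 in young libraries, at -1.90 in library 1 and -1.28 to -0.61 in the other 3, and at -3.41 to -2.46 in aged aPD1ab libraries. Lrpap1 lay at -1.42 to -1.26 in young libraries, at -1.14 in library 1, at -0.28 to 0.37 in the other 3 and at -1.48 to -0.999 with aPD1ab. Relative to the tubule markers, then, Cubn ranges were alike, Lrp2 was slightly lower in most aged libraries, Amn stood higher in both aged groups, and Dab2, Clcn5 and Lrpap1 stood highest in the 3 aged IgG2a libraries where the markers were low.

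With the marker mean as a covariate in the edgeR fit, 0 of the 6 genes passed with age, and 0 had an unadjusted p under 0.05. Over all genes this fit called only 34 of 15953 higher and 5 lower, and 2377 had an unadjusted p under 0.05. The log2 fold change was -0.29 for Lrp2 (edgeR adjusted p = 0.654), 0.17 for Cubn (edgeR adjusted p = 0.768) and 0.55 for Amn (edgeR adjusted p = 0.430). In the antibody comparison these values were -0.15, -0.24 and 0.56, with 0 of 6 passing and 1 at an unadjusted p under 0.05. Of all genes, 0 of 15530 passed there and 891 had an unadjusted p under 0.05. The covariate differed between the groups itself, so a change of the receptors and a change in tubule RNA cannot be told apart in these comparisons. Against young, where 0 of the 20 markers were called, Amn was at 1.06 (edgeR adjusted p = 0.00127) and Clcn5 at -0.58 (edgeR adjusted p = 0.00697) with the covariate. That fit called 2774 of 15986 genes higher and 2505 lower.

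**Figure D4:**
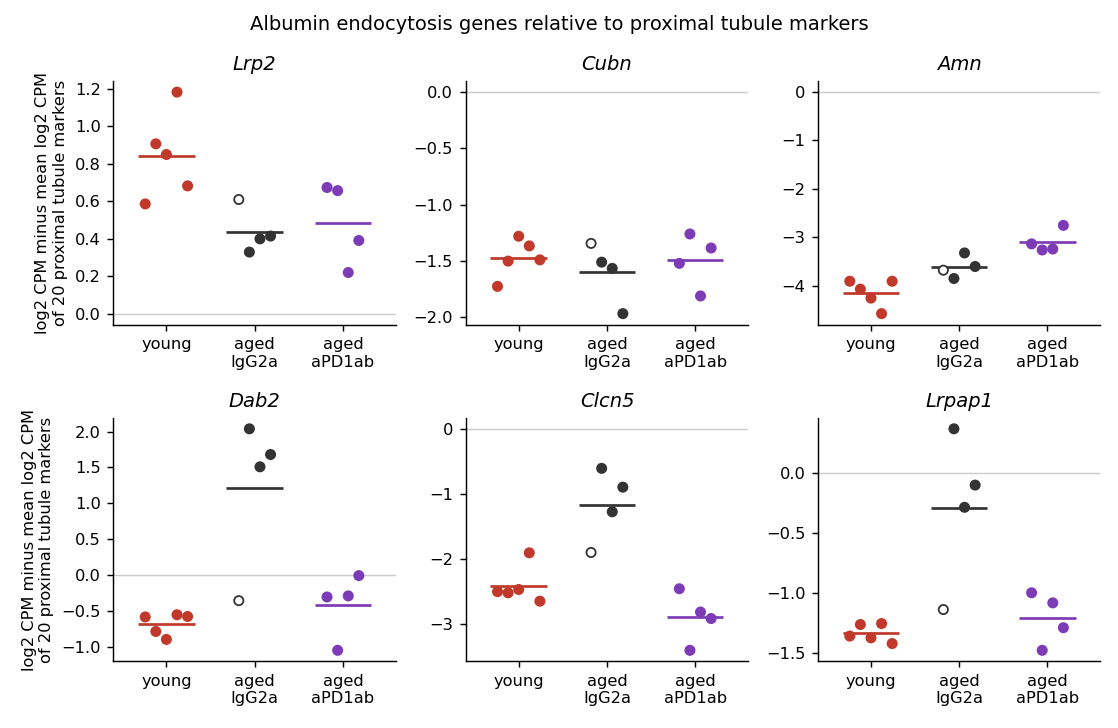
Each gene's log2 CPM minus the mean log2 CPM of 20 proximal tubule markers, by library and group, with lines at group means, an open point for aged IgG2a library 1 and a separate vertical scale in each panel. The groups overlap for Cubn, Amn steps from -4.58 to -3.91 in young to -3.26 to -2.76 in aged aPD1ab libraries, and the 3 filled aged IgG2a points stand highest for Dab2, Clcn5 and Lrpap1.

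The counts in the gene lists below are to be read beside the shares over all genes. With age these were 9.05% called higher and 8.38% lower, and without library 1 22.1% and 23.5%. With the antibody without library 1 they were 17.1% and 13.2%, and against young 12.4% and 9.97%. A list near these shares does not stand out from all genes, and no list was tested against them. Other receptors of the LDL receptor family moved in both directions. Of 12 tested with age, Lrp1 rose and Lrp3, Lrp4 and Lrp6 fell, with a median log2 fold change of -0.041. Lrp1, a scavenger receptor of many cell types and also a client of Lrpap1, changed by 1.57 (edgeR adjusted p = 0.0101), opposite in direction to Lrp2. Sorl1, a sorting receptor, was at 0.076 (edgeR adjusted p = 0.693). Without library 1, 3 of the family rose and 5 fell with age, with Lrp1 at 1.78. With the antibody and without library 1, Lrp1 was at -1.22 and fell, and Vldlr and Lrp3 rose. Against young, Lrp5 and Lrp6 were lower in aged aPD1ab libraries and Lrp1 was at 0.55 (edgeR adjusted p = 0.0741).

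Among 6 other proteins that bind albumin, 5 changed with age. Stab1 and Msr1, scavenger receptors of macrophages and sinusoidal cells, rose by 0.81 and 1.64, and the lipoprotein receptor Scarb1 rose by 0.90. The fatty acid receptor Cd36 fell by 0.82 and the matrix protein Sparc fell by 0.64. Fcgrt, the neonatal Fc receptor that returns albumin from endosomes to the cell surface, was at 0.16 (edgeR adjusted p = 0.377). Without library 1 the counts with age were 3 higher and 2 lower as well. With the antibody and without library 1, Stab1, Msr1 and Scarb1 fell. Against young, Cd36 was at -1.11 (edgeR adjusted p = 0.00803) and Msr1 at 0.71 in aged aPD1ab libraries, and Stab1 was at -0.37 without passing. Macrophage markers moved with age as given above, and with the antibody 9 of 9 fell without library 1 (median -1.18). Their part in these receptor changes was not tested.

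Ligands of megalin and cubilin moved in both directions with age, with 3 of 10 tested higher and 2 lower. Apoe was at 2.32 (edgeR adjusted p = 0.00476), B2m at 1.04 (edgeR adjusted p = 0.0406) and Lcn2 at 1.26, all higher, while the vitamin B12 carrier gene Tcn2 fell by 1.203 and Ttr, which encodes transthyretin, fell by 1.64. Without library 1, 4 were higher and 4 lower with age, and Alb (-0.88, edgeR adjusted p = 0.0394) and Gc, which encodes the vitamin D carrier (-1.34, edgeR adjusted p = 0.0452), were among the lower ones. With the antibody and without library 1, Alb, Tcn2 and Ttr rose, by 2.27, 1.72 and 1.71, and B2m and Apoe fell, by 0.94 and 0.92. Against young, Apoe, Lcn2 and Alb were higher in aged aPD1ab libraries, at 1.57, 1.32 and 1.38. Alb, the transcript of albumin itself, was low in these libraries, with a mean of 4.07 CPM.

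Of 17 clathrin coat and adaptor genes, 3 rose and 1 fell with age. The heavy chain Cltc was at 0.080 and Picalm at 0.21, and neither passed, while the light chain Clta rose by 0.69, and Myo6, the motor that moves megalin-bearing vesicles, fell by 0.76. Without library 1, 6 rose and 3 fell with age, Clta at 0.77 and Myo6 at -1.07 among them. With the antibody and without library 1, 2 rose and 3 fell, Myo6 among those that rose (0.86). Against young, Clta, Cltb and Ap2s1 were higher and Fcho2 lower in aged aPD1ab libraries.

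Of 22 endosome sorting and recycling genes, 1 was higher (Vps26a, a retromer subunit) and 1 lower (Inpp5b, a phosphoinositide phosphatase) with age, and without library 1 3 were higher and 5 lower, among them Rab4a of the fast recycling route at -0.77. The most abundant, Rab7 and Rab5c, were at 0.069 and 0.083. Against young, 6 were higher and 3 lower with aPD1ab, Rab7 at 0.38 and Rab5c at 0.47 among the higher ones, and with the antibody without library 1, 3 rose and 2 fell, with Rab4a at 1.67 among those that rose.

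Endosome acidification, on which the release of albumin from the receptors depends, gave 1 higher and 2 lower of 23 genes with age. Slc9a3, the brush border sodium and proton exchanger, fell by 1.30, and Clcn3, a relative of Clcn5, fell by 0.58. Atp6v1a and Atp6ap1 were at -0.54 (edgeR adjusted p = 0.107) and 0.059. Without library 1 the counts were 3 higher and 9 lower with age, and 8 higher and 0 lower with the antibody, all 8 of them proton pump subunits. Against young, 7 pump subunits were higher in aged aPD1ab libraries, and Slc9a3, Atp6v1a, Clcn3 and Clcn4 were lower, in the same direction as Clcn5.

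Among 10 lysosomal genes, 4 rose and 0 fell with age and 5 rose and 0 fell in aged aPD1ab against young libraries. The protease Ctsb was at 1.28 (edgeR adjusted p = 0.0121) and 0.81 (edgeR adjusted p = 0.00633), and Lamp1 at -0.040 and 0.20. Without library 1, 5 rose and 3 fell with age, and with the antibody 2 rose and 1 fell. Of 7 chaperones of the endoplasmic reticulum, 0 passed with age in edgeR, 4 had an unadjusted p under 0.05, and 5 were lower without library 1. The same list gave 0 calls with the antibody and against young, with 0 and 1 at an unadjusted p under 0.05, and 0 calls in edgeR with the antibody without library 1 (1 at an unadjusted p under 0.05). Hspa5 and Calr, both needed for folding of secretory proteins, were at -0.20 and -0.45 with age.

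Transcription factors of the proximal tubule were lower with age for 2 of 9, namely Hnf4a and Ppara, and higher for Pparg. Hnf4a, also in the marker list, was at -1.62 (edgeR adjusted p = 0.0422) and Vdr at -0.75 (edgeR adjusted p = 0.0801). Without library 1, 6 fell and 2 rose with age, and 6 rose and 1 fell with the antibody, with Hnf4a at -2.48 and 2.81. Against young, 2 were higher and 2 lower: Esrra was at 0.56 and Pparg at 0.68, Ppara at -0.73 and Vdr at -0.55, while Hnf4a was at 0.30 (edgeR adjusted p = 0.574). With all libraries, 0 members of any of these 9 lists passed in the antibody comparison in edgeR, as for all genes, with 0 to 9 per list at an unadjusted p under 0.05.

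The 3 transcripts whose log2 CPM ran most like each gene over the 13 libraries, of 14058 with a mean of at least 1 CPM, were as follows. Slc6a20b, Acsm2 and Galnt14 followed Lrp2 with a Pearson r of 0.996, 0.995 and 0.993, and Acsm2 is itself 1 of the tubule markers. Abcc2, Abcg2 and Enpp3 followed Cubn at 0.995, 0.994 and 0.993. Pfn3, Akr7a5 and Nlrp6 followed Amn at 0.988, 0.985 and 0.981. Trim44, Gpam and Opa1 followed Clcn5 at 0.986, 0.980 and 0.978, and Paqr9, Abcg2 and Acss2 followed Lrpap1 at 0.991, 0.989 and 0.989. Dab2 had no such close match, with Tnfaip8, Slc7a7 and Slc7a8 at 0.873, 0.869 and 0.866. Among the 6 genes, Dab2 and Clcn5 were least alike, with r = 0.27. These are descriptions over points that share libraries and a common split by group.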

How the data were processed

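The authors deposited 1 table of whole-number counts per Ensembl gene, without normalization; the submitters' processing notes name HISAT2, featureCounts and the builds mm10 and GRCm38, and the strand setting was not given in the sources used here. Columns were tied to groups by the numbers printed in the study's principal component plot. This left 2 per-sample columns out, and library numbers only name columns. Titles name separate mice, and no batch or pairing is named. Symbols, positions and exonic lengths came from GENCODE M21 (45229 genes matched).

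Separate fits were made for each pair with edgeR 4.0.16 in R 4.3.3 (quasi-likelihood, robust, TMM, filterByExpr), and an adjusted p under 0.05 counted as changed. CPM were TMM-scaled over 13 libraries, and log2 CPM used a prior count of 2. Alternatives used DESeq2 1.42.0, limma 3.58.1, other scalings, filters, libraries and marker covariates. Tests were checked on simulated counts with 200 genes changed 2-fold or 4-fold. With age, 63% of 2-fold and 81% of 4-fold changes were recovered. With the antibody these were 9% and 77%, so most 2-fold changes were missed in that simulation. For aged aPD1ab against young they were 56% and 87%. Noise was drawn separately for each gene, without shifts of a whole library shared across genes. These shares therefore do not give the power of the tests on the real libraries.

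The 6 genes and all lists were chosen with earlier results of these data known. Named genes were the 6, the 2 most abundant of each list and the 3 most alike. Other listed genes that passed, and Fcgrt, were named after their values were seen. A further gene of 1 list was left out of its counts and is not reported here.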

Additional observations from a re-analysis of the deposited data

Results flagged for a closer look

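Within groups of 4 or 5 libraries, the gap between the most extreme library and its nearest neighbour was set against the whole range for each of the 6 genes (18 sets), and 4 sets exceeded Dixon's critical value. Chance passes this limit in about 1 in 20 groups. All 4 were aged IgG2a library 1, far above the other 3 libraries of its group. Lrp2 was at 496 CPM there, Cubn at 128 CPM, Clcn5 at 87.0 CPM and Lrpap1 at 148 CPM. The 6 genes share this library, so these are not 4 separate observations. The same library had the highest sum of proximal tubule markers and the lowest mitochondrial share and macrophage sum of its group, as given in the report. The part of these in the high values was not tested.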

How the results depend on the processing

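With age, 4 of the 6 genes passed, and the count was 6 with library totals, 5 in DESeq2 and in limma voom with quality weights (Amn added), 3 with no low-count filter (Cubn lost, adjusted p = 0.0728), 2 when a change above 2-fold was also required, 0 with the proximal tubule or the macrophage marker covariate (0 and 2 at an unadjusted p under 0.05), and 0 to 5 when single libraries were left out (0 without aged IgG2a library 2 or 3, and 1, Lrpap1, without young library 3 or 4 or aged IgG2a library 4). Of all genes with age, DESeq2 called 2094 lower and 2158 higher of 17940, and limma voom with quality weights 3548 and 3875 of 15953. The fit with no low-count filter called 1065 and 828 of 26039, and the 2-fold limit left 732 and 621. The proximal tubule covariate left 5 and 34, and the macrophage covariate 75 and 198. Leaving out aged IgG2a library 1 gave 3813 lower and 3584 higher calls over all genes. Leaving out any other single library gave 293 to 760 lower and 260 to 744 higher, against 1337 and 1443 with all libraries. With the antibody, 0 passed, against 4 in DESeq2, in limma voom with quality weights and in 1 fit of all 3 groups. The counts over all genes for these fits are given with the antibody results above. Leaving out single libraries gave 0 to 4 with the antibody, where the 4 needed aged IgG2a library 1 to be left out. In each other antibody fit without 1 library, 0 of all genes passed as well. For aged aPD1ab against young, 2 passed, against 1 with library totals only, 1 with no low-count filter, 0 in 1 fit of all 3 groups, 0 with the 2-fold limit and 0 to 2 when single libraries were left out. Over all genes, no low-count filter gave 1546 higher and 1369 lower of 26041 there. The fit of all 3 groups gave 1491 and 1411 of 16330, and the 2-fold limit left 336 and 430. Leaving out single libraries gave 1293 to 2122 higher and 1024 to 1746 lower. Library totals moved the median log2 fold change of all genes from 0.038 to -0.38 with age (331 higher and 3380 lower calls, against 1443 and 1337), from -0.011 to 0.24 with the antibody, and from 0.017 to -0.11 in the last comparison (856 higher and 1632 lower, against 1984 and 1594).

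Directions turned as follows. The tubule covariate gave 0.17 for Cubn, 0.55 for Amn and 0.040 for Clcn5 with age, and -0.15 for Lrp2, -0.24 for Cubn and -0.68 for Clcn5 with the antibody. With the antibody, Clcn5 was at -0.40 with the macrophage covariate and -0.037 to 0.44 when single libraries were left out (the former without aged aPD1ab library 2). Against young, Cubn was at -0.10 with library totals and -0.25 in voom, Lrpap1 at -0.10 and -0.13. The ratio of mean TPM gave -0.17, -0.19 and -0.028 for Cubn, Lrpap1 and Dab2 there, in a scale where the median of all genes was -0.20. Leaving out single libraries there gave -0.55 to 0.23 for Cubn, -0.27 to 0.13 for Lrpap1 and -0.0059 to 0.28 for Dab2. The cause was not tested. Every other alternative kept the direction. The lowest count of any of the 6 genes was 100, so counting error was small beside the spread between libraries. No paired analysis was possible because the columns carry no shared replicate numbers.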
